A study of Mus musculus with 8 samples.

Results

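The 9 methyltransferase genes described here were followed in mouse liver, namely Pemt, Gamt, Nnmt, Inmt, Tpmt, Hnmt, As3mt, Mettl7a1 and Pcmt1. They were chosen by name, 9 of the 18193 genes with a probe set of their own, and every probe set annotated with exactly 1 of these symbols was taken, which gave 17 of the 45037 non-control probe sets of the array. The samples were livers of 8 male C57BL/6 mice between 92 and 101 days old, 1 array each. In 4 mice, titled MTAP+/-, 1 copy of Mtap was intact, and the other 4, titled MTAP+/+, were wild-type. The labels give no description of the altered allele and no treatment, and all mice shared strain, sex and age range. Values are log2 RMA signals, a scale on which 1 unit is a doubling, and each change is MTAP+/- minus MTAP+/+.

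S-adenosylmethionine is the methyl donor of most cellular methylation reactions. Each of these enzymes moves its methyl group to an acceptor and releases S-adenosylhomocysteine, and in liver the synthesis of phosphatidylcholine and of creatine are known as large consumers of the donor. Mtap encodes the phosphorylase that clears methylthioadenosine, a by-product of polyamine synthesis made from S-adenosylmethionine, and feeds its methylthio group back towards methionine. The comparison asks whether the transcripts of methyl-consuming enzymes differ when 1 Mtap copy is lost.

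None of the 17 probe sets passed an adjusted p of 0.05 in limma fitted to all probe sets with Benjamini-Hochberg adjustment (0 of 17, lowest adjusted p = 0.537), where 0.0355% of all probe sets passed. At an unadjusted limma p under 0.05 the count was 2 of 17, Hnmt and Inmt, both higher in MTAP+/- liver. That is 11.8% of the members beside 8.41% of all probe sets, and 2 higher members stand beside 4.56% of all probe sets, so the count is near the background. With 1 liver left out the unadjusted count lay between 0 of 17 (without MTAP+/- replicate 1, MTAP+/- replicate 3 or MTAP+/+ replicate 1) and 4 of 17 (without MTAP+/- replicate 2). In 0 of 17 probe sets were the genotypes without overlap, which held for 4.35% of all probe sets. The median change over the 17 was -0.03, with 7 above and 10 below zero, and the median over all probe sets was -0.01. With the probe set of highest mean for each gene the median was 0.21, with 5 of 9 genes above zero. The changes ran from -0.31 to 0.36, and the outermost bounds of the 17 intervals (95%) were -0.80 and 0.92.

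Mtap itself was lower in every MTAP+/- liver at each of its 4 probe sets, with changes from -1.63 to -0.80 and adjusted p from limma between 0.00443 and 0.0414. The hepatocyte markers Alb, Ttr, Apoa1 and others averaged between 12.63 and 12.92 in all 8 livers, as the tissue label says. Of their 15 probe sets 14 were higher in MTAP+/- liver and 1 lower, with a median change of 0.03 and 0 called. Higher were also 8 of 12 lymphocyte, 7 of 9 endothelial, 14 of 17 stellate or fibroblast and 2 of 9 cholangiocyte probe sets, with 0 called. So were 2 of 5 erythroid and 3 of 7 pancreas and fat probe sets (0 called). Unadjusted limma p was under 0.05 for 2 lymphocyte probe sets (16.7%, beside 8.41% of all probe sets), both of Ptprc (0.75, and 0.29 at a mean of 2.45). The same held for 2 pancreas and fat probe sets (28.6%), both lower, and for 0 endothelial, stellate or fibroblast, cholangiocyte and erythroid ones. The pancreas and fat means were 4.42 to 4.63 in MTAP+/- and 4.64 to 4.78 in MTAP+/+ livers. Macrophage markers averaged 7.84 to 8.87 in MTAP+/- and 7.70 to 8.19 in MTAP+/+ livers, with 7 of 11 probe sets higher and 0 called. Of these, 4 (36.4%) had an unadjusted limma p under 0.05, all higher, namely those of Mpeg1, Cd5l, Cd68 and Adgre1. That share was 8.41% over all probe sets and 13.3% over those with a mean of at least 5, as all 11 had. The Kupffer cell markers Clec4f and Vsig4 were at -0.27 and 0.05, and the 3 Csf1r probe sets at -0.02, -0.02 and -0.10. MTAP+/- replicate 2 had the lowest Clec4f (7.06) and Vsig4 (8.20) and the highest Marco values (9.97 and 9.18) of all 8 livers. RNA quality was read as the 3' minus 5' control signal (Actb and Gapdh averaged), which is larger where RNA is less intact. That difference was 1.1, 0.713, 1.12 and 1.08 in MTAP+/- replicates 1 to 4. In MTAP+/+ replicates 1 to 4 it was 0.959, 0.963, 0.880 and 1.04. MTAP+/- replicate 2 was lowest of all, and the other MTAP+/- livers were above every MTAP+/+ liver. On the second principal component of all probe sets (22% of variance) MTAP+/- replicates 1 to 4 lay at -14.76, -44.12, -4.03 and -14.52. MTAP+/+ replicates 1 to 4 lay at 29.47, 11.25, 18.99 and 17.72. The genotypes did not overlap there, and MTAP+/- replicate 2 lay farthest from zero. In bulk liver fewer cells of a type and less RNA per cell cannot be told apart.

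**Figure D1:**
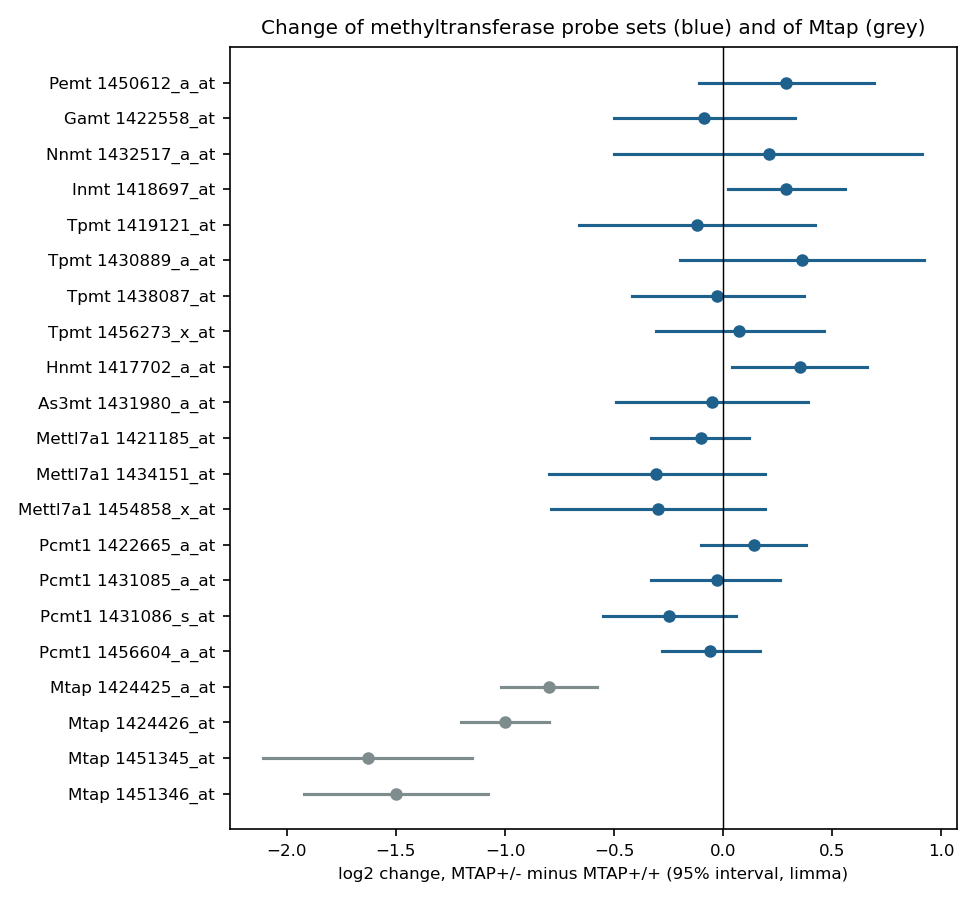
Log2 change between genotypes (x axis, MTAP+/- minus MTAP+/+) for each probe set (y axis), with points for the limma estimate and lines for its 95% interval, n = 4 livers per genotype. The intervals of Hnmt (0.04 to 0.66) and Inmt (0.02 to 0.56) lie above zero and the other 15 in blue span it, while all 4 Mtap intervals in grey lie below zero.

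The upstream sequence of these genes varied in base content, and a pair is shown as an example. RefSeq promoter entries (GRCm38.p6) were found by gene ID for 8 of the 9 members, with 10 entries in all. In the 250 bases before the start, the median GC content over 32851 entries was 52.4%. Among the members GC content was 69.2% for Tpmt, 68.8% for Mettl7a1 and 66.8% for Gamt, but 48.0% for Inmt and 38.8% for Hnmt. As3mt was at 49.6%, the Pemt entries at 52.8% and 44.8%, and the Pcmt1 entries at 52.4% and 78.4%. The Inmt and Gamt stretches below are the 150 bases outside the annotated gene, at chr6:55174991-55175140 and chr10:80261026-80261175, both on the minus strand and written 5′ to 3′ along the gene. Capitals mark TATAAA or GGGCGG on either strand, so that CCGCCC is GGGCGG on the other strand.
Inmt: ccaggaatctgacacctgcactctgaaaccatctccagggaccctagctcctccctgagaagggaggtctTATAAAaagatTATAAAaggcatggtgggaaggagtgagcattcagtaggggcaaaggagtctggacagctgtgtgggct
Gamt: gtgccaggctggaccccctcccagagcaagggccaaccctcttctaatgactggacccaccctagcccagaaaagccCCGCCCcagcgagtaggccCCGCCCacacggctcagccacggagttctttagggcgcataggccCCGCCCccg
Inmt held TATAAA 2 times in its 250 bases, starting 80 and 69 bases before the gene, a motif found in 12.4% of all entries of that length, and no other member entry held it. Gamt held GGGCGG 3 times, Tpmt 5 times and 1 Pcmt1 entry once, where 32.7% of all entries held it at least once. CCAAT stood once each in entries of Pemt, Hnmt, As3mt and Mettl7a1 (33.8% of all entries). These matches are letters in a window. For members other than Inmt the entry's start lies inside the longest annotated gene model, so other starts exist.

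Pemt and Gamt, of the biosynthetic enzymes, did not pass the test. Pemt methylates phosphatidylethanolamine to phosphatidylcholine, the main phospholipid of membranes, bile and lipoproteins. Its probe set 1450612_a_at read 10.73, 10.69, 10.47 and 10.64 in MTAP+/- replicates 1 to 4 and 10.39, 9.75, 10.52 and 10.71 in MTAP+/+ replicates 1 to 4. The MTAP+/- livers lay close together (SD 0.12), and MTAP+/+ replicate 2 was below all others, with the genotypes overlapping. The change was 0.29 ± 0.18 (SE, n = 4 per genotype; 95% interval -0.11 to 0.69; limma adjusted p = 0.718), and it ranged from 0.09 (without MTAP+/+ replicate 2) to 0.41 (without MTAP+/+ replicate 4) with 1 liver left out.

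Gamt methylates guanidinoacetate in the last step of creatine synthesis. Its probe set read 10.10, 10.23, 9.70 and 9.50 in MTAP+/- and 10.37, 9.64, 10.01 and 9.86 in MTAP+/+ livers. Both genotypes covered nearly the same range. The change was -0.09 ± 0.19 (SE; 95% interval -0.50 to 0.33), so that on this scale a Gamt level 0.705 to 1.26 times the wild-type one lies within the interval (limma adjusted p = 0.938).

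Nnmt methylates nicotinamide, the vitamin form released by NAD-consuming enzymes, and is abundant in liver. It varied most of the 17 probe sets between animals, with a 3.03-fold range over the 8 livers and a pooled SD within genotypes of 0.58. Single values were 9.67, 10.83, 10.29 and 10.70 in MTAP+/- and 10.53, 9.23, 10.59 and 10.32 in MTAP+/+ livers. The low livers were 1 of each genotype, MTAP+/- replicate 1 and MTAP+/+ replicate 2. The change of 0.21 ± 0.32 (SE; 95% interval -0.50 to 0.91; limma adjusted p = 0.906) was smaller than that spread, became -0.11 without MTAP+/+ replicate 2 and was 0.44 without MTAP+/- replicate 1.

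The amine methyltransferases Hnmt and Inmt had positive changes that did not pass the adjusted threshold. Hnmt inactivates histamine by methylating its ring. Its probe set 1417702_a_at read 8.86, 8.41, 8.74 and 8.87 in MTAP+/- and 8.04, 8.53, 8.44 and 8.46 in MTAP+/+ livers. The genotypes overlapped through MTAP+/- replicate 2 alone, which lay below 3 of the 4 MTAP+/+ livers. The change was 0.35 ± 0.14 (SE), a 1.28-fold difference with a 95% interval of 1.03 to 1.58 (unadjusted p = 0.0311, adjusted p = 0.537 by limma). With 1 liver left out it lay between 0.24 (without MTAP+/+ replicate 1, adjusted p = 0.856) and 0.45 (without MTAP+/- replicate 2, adjusted p = 0.265). Its unadjusted limma p was no longer under 0.05 without MTAP+/- replicate 1, 3 or 4 or MTAP+/+ replicate 1. MTAP+/- replicate 2 had the lowest Hnmt value of its genotype and the highest macrophage marker mean (8.87), which its Marco values raised. Over the 9 macrophage probe sets other than Marco, a mean taken after the values were seen, MTAP+/- replicate 4 was highest at 8.94, and MTAP+/- replicate 2 was at 8.71. The part of macrophages or RNA quality in the Hnmt values was not tested beyond the covariate fit, in which the change was 0.31.

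Inmt methylates indole amines such as tryptamine and also thioethers and selenium compounds. Its probe set 1418697_at read 12.74, 12.52, 12.46 and 12.27 in MTAP+/- and 12.02, 12.29, 12.15 and 12.35 in MTAP+/+ livers. MTAP+/- replicate 4 lay below MTAP+/+ replicates 2 and 4, and the other 3 MTAP+/- livers were above every MTAP+/+ liver. The change was 0.29 ± 0.12 (SE), a 1.22-fold difference with a 95% interval of 1.02 to 1.48 (unadjusted p = 0.0364, adjusted p = 0.558 by limma). It stayed between 0.21 and 0.37 when any 1 liver was left out. Its unadjusted limma p was no longer under 0.05 without any 1 of MTAP+/- replicates 1, 2 and 3 or MTAP+/+ replicates 1 and 3. The same held in a fit with the replicate number as a block.

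**Figure D2:**
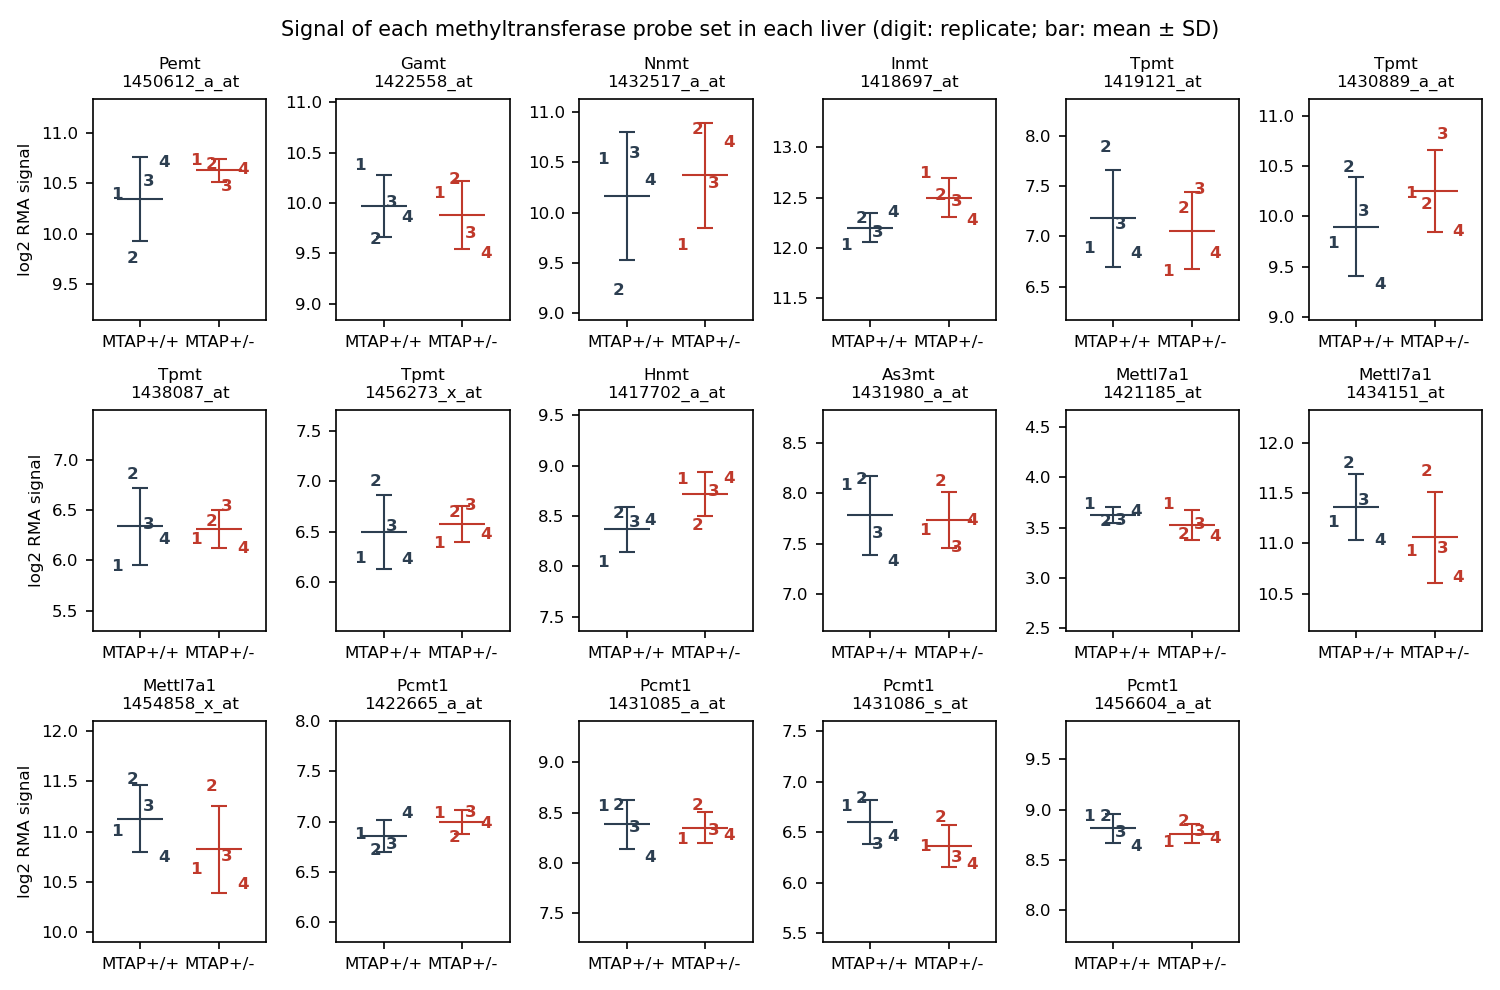
Log2 RMA signal (y axis, the same span in each panel but not the same origin) of the 17 probe sets in each liver by genotype (x axis), digits marking the replicate and bars the mean ± SD, n = 4. The genotypes overlap in every panel, and in Hnmt and Inmt the overlap rests on a single MTAP+/- liver, replicate 2 and replicate 4.

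Enzymes acting on sulfur and arsenic compounds gave no call either. Tpmt methylates thiopurine drugs and has 4 probe sets. The probe set 1430889_a_at read 10.23, 10.12, 10.81 and 9.85 in MTAP+/- and 9.73, 10.48, 10.05 and 9.32 in MTAP+/+ livers, with the highest value in MTAP+/- replicate 3 and the lowest in MTAP+/+ replicate 4. Its change was 0.36 ± 0.25 (SE; 95% interval -0.20 to 0.92; limma adjusted p = 0.754). It was 0.55 without MTAP+/+ replicate 2, 0.17 without MTAP+/+ replicate 4 and 0.17 without MTAP+/- replicate 3. The other 3 probe sets changed by -0.12, -0.03 and 0.07, and in each of them MTAP+/+ replicate 2 was the highest liver.

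As3mt methylates inorganic arsenic. Its values were 7.63, 8.12, 7.46 and 7.73 in MTAP+/- and 8.08, 8.14, 7.60 and 7.32 in MTAP+/+ livers, with high and low livers in both genotypes. The change was -0.05 ± 0.20 (SE; 95% interval -0.49 to 0.39; limma adjusted p = 0.968).

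Mettl7a1 encodes a membrane-bound methyltransferase of the endoplasmic reticulum and lipid droplets that acts on thiols. The probe set 1434151_at read 10.92, 11.71, 10.95 and 10.66 in MTAP+/- and 11.21, 11.79, 11.43 and 11.03 in MTAP+/+ livers. Replicate 2 of each genotype was high, and the other 3 MTAP+/- livers were below every MTAP+/+ liver. The change was -0.31 ± 0.23 (SE; 95% interval -0.80 to 0.19; limma adjusted p = 0.772). It was -0.52 without MTAP+/- replicate 2 (adjusted p = 0.313), -0.16 without MTAP+/+ replicate 2 and -0.17 without MTAP+/- replicate 4.

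The second Mettl7a1 probe set, 1454858_x_at, gave nearly the same values, with a change of -0.30. The third, 1421185_at, had a mean of 3.58, below the array medians (3.91 to 3.97), and a change of -0.10. It was the 1 member probe set under a mean of 5, which the other 16 exceeded. Close relatives share sequence with this gene, and 2 further probe sets are annotated to Mettl7a1 together with neighbours such as Mettl7a2. They changed by -0.40 and -0.22, and a probe set of Mettl7a2 alone by -0.28 (limma adjusted p between 0.681 and 0.734), so the signal of each single copy is uncertain.

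Pcmt1 differs from the other members in that it methylates damaged, isoaspartyl residues of proteins and starts their repair. Its 4 probe sets changed by 0.14 (1422665_a_at), -0.03 (1431085_a_at), -0.25 (1431086_s_at) and -0.06 (1456604_a_at), with limma adjusted p from 0.681 to 0.967. The steadiest, 1456604_a_at, read 8.67, 8.88, 8.78 and 8.71 in MTAP+/- and 8.93, 8.93, 8.77 and 8.63 in MTAP+/+ livers, a 1.23-fold range in all. Its 95% interval of -0.28 to 0.17 was among the narrowest of the members and corresponds to 0.822 to 1.13 times the wild-type level.

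The members did not share 1 pattern over the livers. MTAP+/+ replicate 2 held the highest value in 8 of the 17 probe sets and the lowest in 3, those of Pemt, Nnmt and Pcmt1 1422665_a_at. MTAP+/- replicate 4 and MTAP+/+ replicate 4 held the lowest value in 5 each. After the genotype means were taken off, As3mt ran with 3 Pcmt1 probe sets (Pearson r from 0.859 to 0.925 over 8 livers), and Pemt ran against the Tpmt probe sets 1419121_at and 1456273_x_at (r = -0.832 and -0.843). These are the extremes among pairs of probe sets of different member genes and are given as a description.

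**Figure D3:**
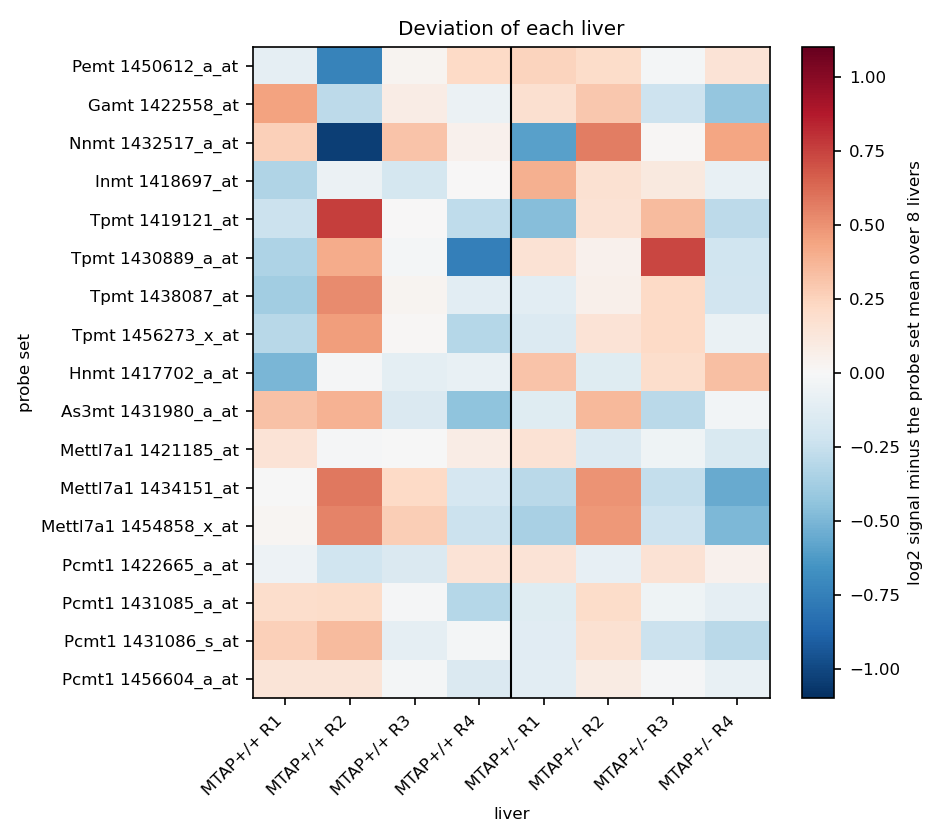
Deviation of each liver (x axis) from the mean over 8 livers of each probe set (y axis), in log2 units by colour, red higher and blue lower. MTAP+/+ replicate 2 is low in Nnmt (9.23) and Pemt (9.75) and high in Tpmt and in 2 Mettl7a1 probe sets (11.79 and 11.52).

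Some member probe sets correlated with the RNA quality reading over the 8 livers, which is given as a description. The Pearson r with the 3' minus 5' control difference, genotype means taken off, was -0.807 and -0.827 for the bright Mettl7a1 probe sets and 0.712 for Pcmt1 1422665_a_at over 8 livers. For the other 3 Pcmt1 probe sets r lay between -0.620 and -0.535, and it was -0.591 for As3mt and 0.633 for Hnmt. Without the 2 livers farthest from the median of that difference, MTAP+/- replicate 2 and MTAP+/+ replicate 3, the first values were -0.543, -0.567 and 0.631 and that of Hnmt 0.460, while As3mt was at -0.843 and the other 3 Pcmt1 probe sets between -0.839 and -0.706. With the difference as a covariate 0 of 17 member probe sets passed the limma threshold, and Hnmt and Inmt were again the 2 with an unadjusted p under 0.05. The part of RNA quality in the differences between livers was not tested further.

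Genes that supply or use the same compounds were read from hand-written lists with 81 measured genes and 156 probe sets. In limma 5 of the 156 passed, the 4 of Mtap and 1 of Trmt9b, a relative of tRNA methyltransferases (-1.39 ± 0.12, SE; adjusted p = 0.00365). The count was 2 without any 1 of MTAP+/- replicates 1, 3 and 4 or MTAP+/+ replicates 1, 2 and 3, and 4 without MTAP+/- replicate 2 or MTAP+/+ replicate 4. This Trmt9b probe set passed in each of the 16 refits that held it. It was dim, with a mean of 4.61, so the refit with a mean of at least 5 left it out. In MTAP+/- livers it averaged 3.91, where the array medians were 3.91 to 3.97. The other Trmt9b probe set was also dim (mean 3.42) and lower without overlap, but did not pass (-0.41, limma adjusted p = 0.396). Trmt9b was listed beside small-molecule enzymes although its relatives act on tRNA. At an unadjusted p under 0.05 the count was 30 of 156, or 19.2%, where all probe sets gave 8.41%. Dim probe sets were fewer in the lists, and among those with a mean of at least 5, a comparison added after the values were seen, the count was 25 of 110, or 22.7%, beside 13.3% of all. Probe sets of 1 gene count several times in these shares. The 4 probe sets of Mtap, the gene that the genotype alters, are among the 30 and among the 25. The Trmt9b probe sets are among the 30.

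The phosphatidylcholine list beside Pemt had 0 of 39 probe sets called, 8 with an unadjusted limma p under 0.05 and a median change of -0.11. Lowest unadjusted p values were those of Bhmt, which remethylates homocysteine with betaine from choline (-0.43, adjusted p = 0.255), Etnk1, the kinase that starts phosphatidylethanolamine synthesis (0.75, adjusted p = 0.260), Bhmt2 (-0.41) and Abcb4, the phosphatidylcholine exporter into bile (-0.40, adjusted p = 0.476). The 2 lowest-p Etnk1 probe sets were both higher without overlap (0.75 and 0.43), while the other 3 changed by 0.18, 0.38 and -0.12. The one at 0.75 was dim, with a mean of 3.89, and the one at 0.43 had a mean of 8.48. Bhmt and Abcb4 were lower without overlap. In this list 6 of 39 probe sets (15.4%) were without overlap, beside 4.35% of all probe sets.

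The creatine list beside Gamt had 0 of 12 called and 0 of 12 at an unadjusted limma p under 0.05, with a median of 0.01. Its lowest p was that of a Ckmt1 probe set (-0.22, adjusted p = 0.690), and Arg1, Ckm and Ckb followed with changes of -0.19, 0.14 and 0.26. The nicotinamide list beside Nnmt had 0 of 24 called, 5 with an unadjusted limma p under 0.05 and a median of 0.04. Nmnat1, which makes nuclear NAD, was at -0.43 (limma adjusted p = 0.440), and Tdo2, which opens the tryptophan route to NAD, at 0.59. Nampt, the salvage enzyme that competes with Nnmt for nicotinamide, was at 0.47 (limma adjusted p = 0.558), with Naprt at -0.18. Other probe sets were at -0.38 for Nmnat1, 0.47 and 0.22 for Tdo2, and 0.34 and 0.22 for Nampt. The Tdo2 probe set at 0.22 was its brightest (mean 13.09).

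The list beside Tpmt, Hnmt and As3mt had 0 of 25 called, 2 with an unadjusted limma p under 0.05 and a median of -0.12, led by Txnrd1, a thioredoxin reductase (-1.24, adjusted p = 0.371), and Gmps, which makes GMP (-0.29, adjusted p = 0.419, with -0.05 and 0.08 in its other probe sets). Aqp9 and Itpa followed at -0.40 and -0.27, with -0.18 in the brighter Aqp9 probe set (mean 10.92). Other Txnrd1 probe sets changed by -0.23 and -0.32. Other methyltransferases had 1 of 35 called, that of Trmt9b, 8 with an unadjusted limma p under 0.05 and a median of 0.02. Next was Pcmtd2, a Pcmt1-like gene whose probe sets lay higher without overlap (0.57 and 0.50, limma adjusted p = 0.345 and 0.392). Without overlap were 5 of 35 probe sets of this list (14.3%), beside 4.35% of all probe sets. Ntmt1 (-0.36, and 0.10 in its other probe set) and Coq3, whose probe sets disagreed (0.40 and -0.36), followed. In the list of donor supply and removal 4 of 22 passed, all of Mtap. With those 4 included, 7 had an unadjusted limma p under 0.05, and the median was -0.14. Ahcyl2 (-0.38), an Adk probe set (0.91) and Slc25a26, the mitochondrial carrier of the donor (-0.21), had adjusted p between 0.499 and 0.652 by limma. The other Ahcyl2 probe sets disagreed, at 0.22 (unadjusted limma p also under 0.05) and -0.19. The other 5 of Adk were at 0.53, -0.23, 0.11, 0.06 and 0.04. Those at 0.06 and 0.04 were the brightest of Adk (means 12.85 and 11.61), and the one at 0.91 had a mean of 5.55.

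**Figure D4:**
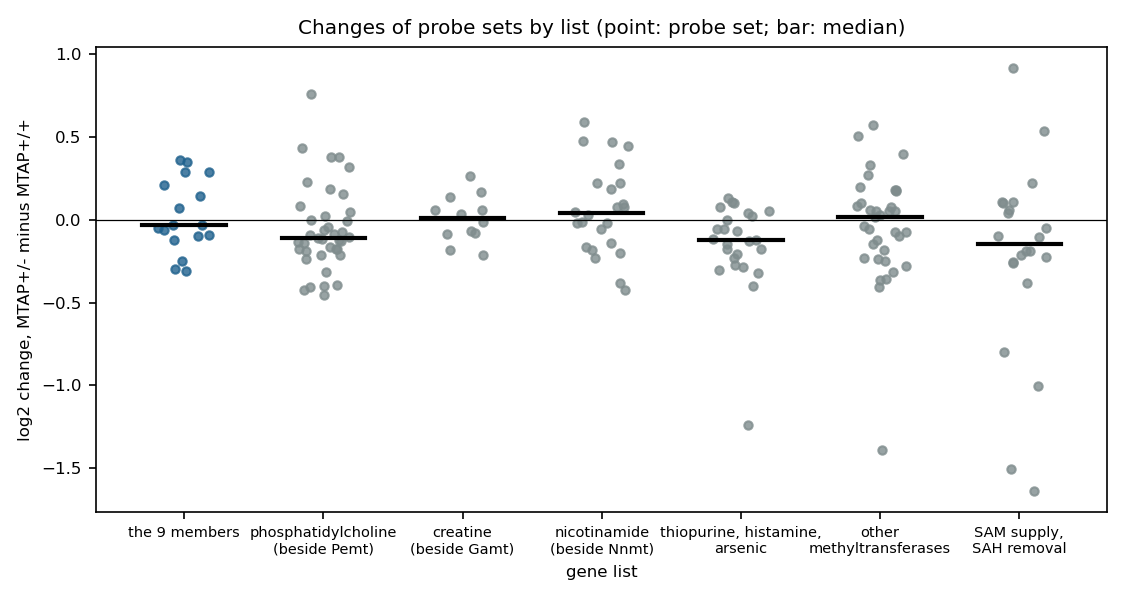
Log2 change (y axis, MTAP+/- minus MTAP+/+) of every probe set (points) of the 9 members and of the 6 lists (x axis), bars marking medians; SAM is S-adenosylmethionine and SAH S-adenosylhomocysteine. The members span -0.31 to 0.36, and the lowest points belong to Txnrd1 (-1.24), Trmt9b (-1.39) and Mtap.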

How the data were processed

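Liver RNA of 8 mice was isolated with TRIzol and hybridised to Affymetrix arrays, per the labels' protocols. The authors deposited log2 values, summarised by probe set with RMA, per the submitters' processing notes. Version, settings and genome build are not given in the sources at hand. RMA compresses changes of dim probe sets. Of 45101 probe sets 64 controls were left out of tests, and 34945 of the rest carry 1 symbol (932 several, 9160 none). The values were used as deposited and fitted with limma 3.58.1 in R 4.3.3 (lmFit, eBayes, two-sided, genotype as the sole term), with Benjamini-Hochberg adjustment over 45037 probe sets and a threshold of 0.05. All adjusted p-values come from this limma fit unless a setting is named. The test was tested on simulated data. All 9 member genes matched the RefSeq table by gene ID. Of each list up to 4 genes of lowest p were named, with all members, Mtap and, per member, the 3 genes of most similar pattern. Probe sets other than that of lowest p, and the Tpmt contrast, were named after their values were seen. Members and lists were chosen with earlier results of these data known. The number of arrays limits the precision. Alternatives were trend and robust settings, array weights, renewed normalisation, centring, filters, 1 probe set per gene, a replicate block, an RNA quality covariate, other thresholds and each liver left out.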

Additional observations from a re-analysis of the deposited data

How the results depend on the processing

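In 17 refits no member probe set passed an adjusted p of 0.05 by limma (lowest 0.265), and at an unadjusted p under 0.05 the count was 2 in the fit as reported and 0 to 4 with 1 liver left out. Of the 17 member probe sets 10 kept their sign in every refit that held them. With 1 liver left out, ranges that crossed zero were -0.20 to 0.046 (Gamt), -0.106 to 0.44 (Nnmt), -0.26 to 0.112, -0.16 to 0.143 and -0.019 to 0.24 (Tpmt 1419121_at, 1438087_at and 1456273_x_at), -0.20 to 0.069 (As3mt), -0.15 to 0.027 (Pcmt1 1431085_a_at) and -0.044 to 0.385 (Ckb). With the 3' minus 5' covariate As3mt was at 0.013 and Pcmt1 1431085_a_at at 0.004. The members' median was 0.21 with 1 probe set per gene, as fewer probe sets of Tpmt, Mettl7a1 and Pcmt1 entered. Counts over all probe sets were 16 as reported, 9 with a mean of at least 5, 9 with 1 probe set per gene, 25 with the replicate block, 42 with the covariate, and 5 (without MTAP+/- replicate 1) to 21 (without MTAP+/- replicate 2) with 1 liver left out. List probe sets called were 5 as reported, 2 with 1 probe set per gene, 30 at an unadjusted p under 0.05, and 2 to 4 with 1 liver left out. The labels do not state whether the replicate numbers pair the livers. Correlations of same-numbered deviations were -0.0737, 0.224, 0.00486 and 0.227. Replicates 2 and 4 matched their own number best in both genotypes, and replicates 1 and 3 in neither. These values cannot settle whether livers were paired. With the replicate block 0 of 17 member probe sets passed, with 4 at an unadjusted limma p under 0.05. These were Hnmt, Pcmt1 1431086_s_at and the bright Mettl7a1 pair, and Inmt was no longer among them. The cause of these differences was not tested.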

Other observations

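The genes most like each member were read off as those of highest Pearson r over the 8 livers after the genotype means were taken off, among 6747 probe sets with 1 symbol and a mean of at least 7. Being the highest of so many, the values are large by selection and carry no p. For Hnmt they were Cavin2, Crls1 and Tgs1 (r from 0.968 to 0.983), and for Inmt Pctp, Kif1b and Stard4 (0.909 to 0.934). Pctp and Stard4 encode carriers of phosphatidylcholine and of sterol. For Pemt they were Poldip3, Brk1 and Lyplal1 (0.981 to 0.989), for Gamt Atox1, Slc25a22 and Twnk (0.953 to 0.968) and for Nnmt Arhgap9, Tbcd and Pgap2 (0.975 to 0.978). For Tpmt they were Srp72, Asph and Acaa2 (0.945 to 0.955), for As3mt Ndufb7, Mrpl44 and Car3 (0.975 to 0.983), for Mettl7a1 Aldh9a1, Suclg2 and Adap2 (0.963 to 0.988) and for Pcmt1 Dtymk, Pdcd6ip and Vapb (0.982 to 0.995).

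Probe sets of a single gene did not always run together. The Pcmt1 probe set 1422665_a_at ran against the other 3 (r = -0.823, -0.532 and -0.736 over 8 livers), which ran with each other (0.789 to 0.983). The bright Mettl7a1 pair correlated at 0.991.

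Within each liver the Tpmt probe set 1430889_a_at was set against the mean of the other 3 Tpmt probe sets, a contrast picked after the values were seen. The difference was 3.82, 3.34, 3.88 and 3.38 in MTAP+/- and 3.38, 3.24, 3.37 and 2.90 in MTAP+/+ livers. The means of 3.60 ± 0.29 (SD, n = 4) and 3.22 ± 0.23 differed by 0.38 (exact two-sided permutation p = 0.114, where 0.0286 is the smallest possible).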
